A study of Gallus gallus with 12 samples.

Results

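The oviduct genes described here are 105 loci that carry a new-gene label in the deposited gene table of a chicken oviduct study and that are well expressed. A locus was taken when its identifier contained newGene and the highest of its 4 group means was at least 500 scaled counts, the unit of that table, which holds read counts already brought to a common level across libraries. The label is carried by 1579 of the 19820 genes, and 105 of those 1579 reached the threshold. Each identifier begins with Gallus_gallus_, which is left out of the names below.

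The libraries were made from mRNA of the magnum and the uterus, both parts of the hen's oviduct, of Lohmann layers, which are chickens (Gallus gallus) bred for egg production. The groups were the uterus at 300 days of age, the uterus at 120 days, the magnum at 300 days and the magnum at 120 days, with 3 libraries each and 12 in all. No other treatment or genotype is named in the labels, and the series title speaks of prelaying and laying hens. The labels do not say whether each of the 3 libraries is from a hen of its own, so p-values measure the spread between these libraries, which may be partly technical.

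Tubular glands of the magnum secrete the egg white proteins, and in the uterus, also called the shell gland, the egg takes up water and gains its calcified shell. Both segments grow and take on their secretory work as the hen comes into lay, under the control of ovarian steroids. A new-gene label is usually given to transcribed regions that were put together from the reads and lie outside the annotation in use. Such loci can be genes of their own, coding or non-coding, or unannotated ends of known genes, and which of these applies to the 105 was not analysed here. None of them (0) matched the reference table of chicken genes. Of all 19820 identifiers 0 matched either, so the lookup could not tell these loci from other genes and says nothing about them. The loci therefore have no symbol, known role, position or sequence in this account. For the same reason the labelled segments could not be checked against marker genes.

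The rule used the level in the same 12 libraries, so the levels are a description. It takes a locus by its highest group and therefore favours loci that are high in 1 group and low in another. Counts of loci that passed a test and median changes are for that reason descriptions too, and nothing is read from their excess over the whole table. The threshold itself fell within a smooth run of levels: newGene_3052 and newGene_5947 lay just inside with highest group means of 501.3 and 502.0 scaled counts, and newGene_4772 and newGene_1149 just outside with 498.3 and 491.0.

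Library totals ran from 16376839 to 17274374 scaled counts in the uterus at 300 days and from 14543795 to 15468376 at 120 days. In the magnum they ran from 44995822 to 77432154 at 300 days and from 14499548 to 25071610 at 120 days. These totals are not depth, since the size factors of all 12 columns lay between 0.974 and 1.01. In 4 magnum libraries low values fell on regular steps, from which 1 read was worth 2.267, 2.372 and 1.952 scaled counts in replicates 1 to 3 at 300 days and 1.167 in replicate 1 at 120 days. The reads assigned to genes there were about 27500000, 32600000, 23100000 and 21500000, and for the other 8 libraries no depth could be had. Replicate 1 of the magnum at 120 days stood apart from replicates 2 and 3, with a total of 25071610 against 14499548 and 14557061, and changes that move with it are given with and without it. With that library left out of the group means the rule would again take 105 loci, 102 of them the same. newGene_2277, newGene_4059 and newGene_4878 would not be taken, and newGene_2322, newGene_3028 and newGene_4403 would be.

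Most of the 105 loci were modestly expressed, and a few were very abundant. Highest group means of 10000 scaled counts or more were found for 4 loci, 51 had 1000 to 9999, and 50 had less than 1000. Together they made up 0.684% ± 0.0107 of all scaled counts in the uterus at 300 days and 0.550% ± 0.0599 at 120 days. In the magnum the share was 0.609% ± 0.0868 at 300 days and 0.569% ± 0.0580 at 120 days (SD, n = 3 each). In each 300-day magnum library 1 locus, newGene_4922 or newGene_3031, made up 34.3% to 35.77% of the summed scaled counts of the 105. In the magnum at 120 days the largest locus made up 26.63% in replicate 1, 5.29% in replicate 2 and 5.58% in replicate 3. A group mean of 500 or more was reached in all 4 groups by 37 loci, in 3 by 12, in 2 by 19 and in a single group by 37.

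The highest mean stood in the uterus at 300 days for 35 loci and at 120 days for 13, and in the magnum at 300 days for 48 and at 120 days for 9. Without magnum replicate 1 at 120 days the counts were 35, 11, 52 and 7 in the same order, and newGene_9 was among the loci whose highest group was then the magnum at 300 days. Of the 8228 numbered genes that met the same level threshold, 2058 had their highest mean in the uterus at 300 days, 1446 in the uterus at 120 days, 3503 in the magnum at 300 days and 1221 in the magnum at 120 days. The order of the 4 groups was the same for both kinds of gene, with the magnum at 300 days first (45.7% of the loci and 42.6% of the numbered genes). In the deposited FPKM table, which gives levels per kilobase, 99 of the 105 loci had the same highest group. The highest group mean was over 10 times the lowest for 28 of the 105 loci (26.7%) and for 490 of the 8228 numbered genes (5.96%). It was under 2 times the lowest for 26 loci (24.8%) and for 4921 numbered genes (59.8%).

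**Figure D1:**
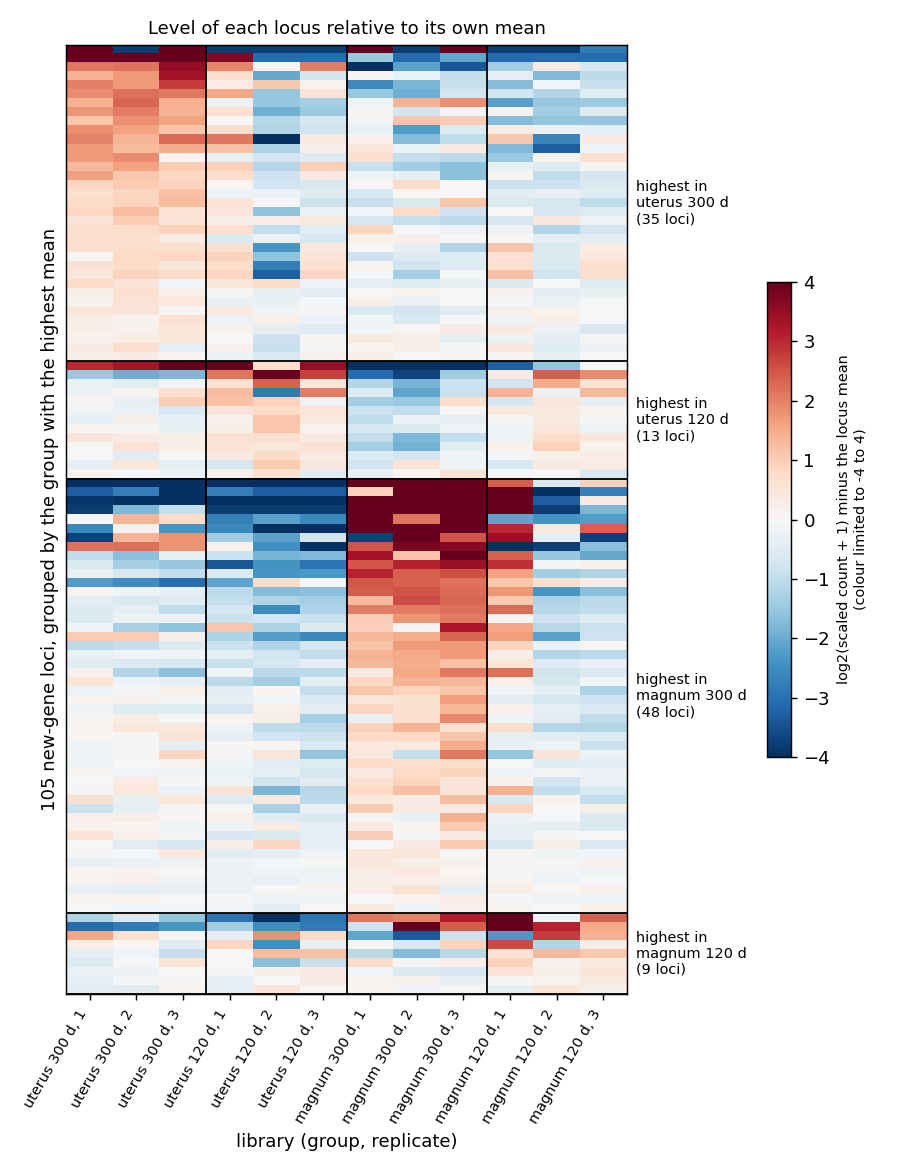
Level of each of the 105 new-gene loci (rows) in each of the 12 libraries (columns), as log2(scaled count + 1) minus the mean of that locus over all libraries, with colours limited to -4 to 4. Rows are grouped by the group with the highest mean, 35, 13, 48 and 9 loci from top to bottom, and within the magnum at 120 days replicate 1 has the red rows of the 300-day magnum at several loci.

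In the magnum, 28 of the 105 loci were higher at 300 than at 120 days and 10 were lower. Among all 14883 genes tested 12.1% were higher and 13.6% lower. All 105 loci passed the filter on low values. In these bulk libraries a change in the number of cells of a kind cannot be told apart from a change in RNA per cell. The 5 with the largest rises that passed were newGene_3031, newGene_4922, newGene_1845, newGene_2 and newGene_4930, each by over 6 on the log2 scale. The median log2 change of the 105 loci was 0.35, against -0.03 over all genes tested. Over the numbered genes at the same level threshold it was 0.14, and 18.2% of them were higher and 11.1% lower. Libraries did not overlap for 33 loci that were higher and 13 that were lower, where 18.7% and 20.5% of all genes tested did so.

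The 2 most abundant loci of the set were largely magnum transcripts. newGene_4922, 10173 bases long, stood at 117363, 147246 and 108497 scaled counts in the magnum at 300 days, against 42449, 49 and 608 at 120 days. All 3 older libraries were above all 3 younger ones, and replicate 1 of the younger group was far above the other two. The rise on the log2 scale was 6.82 ± 1.67 (SE, adjusted p = 0.0129). It was 9.46 without replicate 1 at 120 days and 4.60 without replicate 2 (adjusted p = 0.0309). Leaving out replicate 3 gave 6.40 and lost the call (adjusted p = 0.0548), as did a fit of the 2 magnum groups alone (adjusted p = 0.0702).

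newGene_3031, 1765 bases long, stood at 130484, 94100 and 60177 scaled counts in the magnum at 300 days, against 1692, 207 and 598 at 120 days. The groups did not overlap, and the lowest of the older libraries was far above the highest of the younger ones. Its log2 change of 7.25 ± 0.57 (SE, adjusted p = 4.42e-05) passed in every fit that left out a library, with values of 6.49 to 8.0. Per kilobase it was the most abundant of the 105 loci, with a group mean of 2605 FPKM in the magnum at 300 days, against 740 FPKM for newGene_4922.

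Both loci were barely listed in the uterus. newGene_4922 had 32, 23 and 22 scaled counts there at 300 days and 16, 15 and 14 at 120 days. newGene_3031 had 15, 15 and 14 at 300 days and 12, 11 and 11 at 120 days. These uterus values were 0.0113% to 0.0257% of the 300-day magnum mean for newGene_4922 and 0.0116% to 0.0158% for newGene_3031. The most abundant gene of the table, gene4368, stood in the same uterus libraries at 0.00791% to 0.0151% of its own 300-day magnum mean. The fraction thus reached higher for newGene_4922 than for the other 2, and the part of a shared carry-over between libraries in these uterus values was not tested.

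Other loci that rose in the magnum did so at lower levels. newGene_1845, of 810 bases, had 2201, 529 and 1274 scaled counts at 300 days, against 277, 0 and 3 at 120 days. Its log2 change was 6.78 ± 1.60 (SE, adjusted p = 0.0108), or 5.11 with a pseudocount of 10, and the call was lost without replicate 3 at 120 days (adjusted p = 0.0518) and with the magnum groups alone (0.053). newGene_4682 had 8473, 21370 and 17603 at 300 days, against 7246, 1467 and 1671 at 120 days, a change of 2.5 ± 0.51 on the log2 scale (SE, adjusted p = 0.00562) that was 0.71 when libraries were divided by their totals (adjusted p = 0.116). At both of these loci replicate 1 was again the highest of the 120-day libraries. newGene_4276, with 34870 bases the second longest of the set, had 2981, 3224 and 2652 at 300 days, against 1896, 110 and 176 at 120 days. Its log2 change was 3.14 ± 0.77 (SE, adjusted p = 0.0129), lost without replicate 3 at 120 days (adjusted p = 0.0631), with the magnum groups alone (0.0662) and with library totals (1.36, adjusted p = 0.0546). The same position of replicate 1 was found in 22 of the 28 loci that rose, against 63 of all 105 loci and 43.3% of the 8228 numbered genes. In 6 of the 28 it was over 5 times the mean of replicates 2 and 3. Without replicate 1 the changes were 9.16 for newGene_1845, 3.23 for newGene_4682 and 4.39 for newGene_4276. Without replicate 2 at 120 days they were 5.10 for newGene_1845 and 2.35 for newGene_4276 (adjusted p = 0.0411 and 0.0499), and without replicate 3 newGene_1845 came to 6.10.

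Smaller rises were those of newGene_176 and newGene_4486, at well expressed loci. newGene_176 had 4558, 5041 and 4025 scaled counts in the magnum at 300 days, against 2507, 1255 and 1455 at 120 days, a change of 1.44 ± 0.24 on the log2 scale (SE, adjusted p = 0.00187) that was -0.34 with library totals (adjusted p = 0.169). newGene_4486 had 5363, 7287 and 8107 at 300 days, against 3749, 4089 and 3621 at 120 days, a change of 0.84 ± 0.19 on the log2 scale (SE, adjusted p = 0.00841). With library totals it was -0.95 and passed as a fall (adjusted p = 0.0119). Groups did not overlap at either locus in the deposited scaling. newGene_6134, at 455 bases the shortest of the set, had 675, 685 and 1438 at 300 days, against 433, 453 and 278 at 120 days, a change of 1.20 ± 0.32 on the log2 scale (SE, adjusted p = 0.0195) that was -0.58 with library totals (adjusted p = 0.221). The call was lost without replicate 3 at 300 days (0.84, adjusted p = 0.0534), without replicate 3 at 120 days (0.98, adjusted p = 0.0913) and with the magnum groups alone (adjusted p = 0.0615).

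These counts rest on limma, which was fitted to log2(scaled count + 1) of all 14883 genes with Benjamini-Hochberg adjustment over them. Shares over all genes tested were taken for this main fit alone. Counts from other fits, here and below, are therefore not read as particular to the loci. Without replicate 1 at 120 days 34 loci were higher and 12 lower, and without replicate 3 at 120 days 18 were higher. The 10 lower loci became 6 without replicate 2 or 3 at 120 days and without replicate 1 or 2 at 300 days. Division by library totals left 5 higher and 59 lower, a scaling that moved the median log2 change of all genes to -1.79, so all rises and falls given here are relative to a typical gene and are not shares of a library.

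In the uterus, 13 of the 105 loci were higher at 300 than at 120 days and 4 were lower, where 6.54% of all genes tested were higher and 7.21% lower. The rises that passed were led by newGene_5906, newGene_2, newGene_4930 and newGene_2267. The median log2 change was 0.54, against 0.02 over all genes tested. Over the numbered genes at the same level threshold it was 0.11, and 9.43% of them were higher and 6.87% lower. Libraries did not overlap for 46 loci that were higher (43.8%) and 7 that were lower (6.67%), against 20.4% and 18.9% of all genes tested. Of those 46 loci 13 passed the adjusted threshold and 28 had an unadjusted p below 0.05.

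newGene_5906, of 2497 bases, was listed at over 3 scaled counts in no magnum library. It stood at 611, 626 and 507 scaled counts in the uterus at 300 days, against 109, 0 and 0 at 120 days, and at 2, 0 and 1 in the magnum at 300 days and 0 in all 3 libraries at 120 days. The log2 change in the uterus was 6.92 ± 1.42 (SE, adjusted p = 0.0098), and 4.69 with a pseudocount of 10. It was 9.18 without uterus replicate 1 at 120 days and 5.79 without replicate 2 or 3, and it remained past the threshold without any 1 library, but not with the 2 uterus groups alone (adjusted p = 0.0509). newGene_2267 had 2005, 2464 and 7727 in the uterus at 300 days, against 1169, 183 and 455 at 120 days, a change of 2.87 ± 0.66 on the log2 scale (SE, adjusted p = 0.0159). Its call was lost without uterus replicate 2 or 3 at 120 days or replicate 3 at 300 days, with adjusted p up to 0.0628. The change was 3.54 without replicate 1 and 2.21 without replicate 2 at 120 days, and 2.27 without replicate 3 at 300 days.

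The uterus calls came from the same limma fit. Leaving out uterus replicate 2 at 120 days gave 7 higher loci and leaving out replicate 3 gave 8, and leaving out magnum replicate 1 at 120 days gave 20. The 4 lower loci became 1 without uterus replicate 2 or 3 at 120 days or any 1 of the 300-day uterus libraries, and 2 without magnum replicate 3 at 120 days, and they were 1 with no filter on low values and 2 with the uterus groups alone. Among loci with a group mean of at least 100, the median coefficient of variation was 17.96% in the uterus at 300 days (95 loci) and 35.1% at 120 days (86 loci).

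Both segments rose with age at 6 of the 105 loci and fell at 3, and at 0 loci did they pass in opposite directions in the limma test. Among all genes tested 2.38% were higher in both segments, 4.52% lower in both and 0.349% passed in opposite directions. The groups compared in the uterus and in the magnum share no library, but the limma fit over all 12 libraries gives both age changes of a locus the same SE. At 120 days libraries with the same number also moved together across the segments. For both reasons the calls in the segments are not independent. newGene_4641, of 7768 bases, had 5918, 9713 and 8294 scaled counts in the uterus at 300 days, against 2763, 1267 and 1698 at 120 days. In the magnum it had 2629, 5825 and 5335 at 300 days, against 824, 940 and 925 at 120 days. In neither segment did the ages overlap. Its log2 changes came to 2.11 ± 0.33 in the uterus (SE, adjusted p = 0.00276) and 2.28 ± 0.33 in the magnum (SE, adjusted p = 0.00105), and that of the magnum was 0.49 with library totals (adjusted p = 0.27).

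newGene_2 and newGene_4930 were near the bottom of their range at 120 days. newGene_2, of 1247 bases, had 411, 420 and 317 scaled counts in the uterus at 300 days, against 104, 16 and 4 at 120 days. Its magnum values were 530, 1269 and 1140 at 300 days, against 4, 6 and 28 at 120 days. Its log2 changes came to 4.20 ± 0.94 in the uterus (SE, adjusted p = 0.0144) and 6.51 ± 0.94 in the magnum (SE, adjusted p = 0.000948). The uterus call was lost without uterus replicate 2 at 120 days (adjusted p = 0.0501) or replicates 1 or 2 at 300 days (0.0508 and 0.0513). The uterus change was 5.37 without uterus replicate 1 at 120 days and 3.17 without replicate 3, and the magnum change was 7.28 without magnum replicate 3 at 120 days.

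newGene_4930, of 26591 bases, had 128, 325 and 214 scaled counts in the uterus at 300 days, against 18, 27 and 20 at 120 days. Its magnum values were 5914, 553 and 2650 at 300 days, against 28, 23 and 26 at 120 days, so that the older magnum libraries differed widely among themselves. Its log2 changes came to 3.22 ± 0.68 in the uterus (SE, adjusted p = 0.0108) and 6.27 ± 0.68 in the magnum (SE, adjusted p = 0.000263), where the magnum change was 5.51 without magnum replicate 1 at 300 days and 7.22 without replicate 2. On the FPKM scale, where 26591 bases give values near the pseudocount, the uterus change was 0.29 (adjusted p = 0.68) and the magnum change 2.01 (0.00643). The other 3 loci that rose in both segments were newGene_4649, newGene_4390 and newGene_4336, with log2 changes of 2.75, 1.38 and 0.84 in the uterus and 2.74, 1.03 and 1.33 in the magnum. For newGene_4649 the magnum change was 3.34 without magnum replicate 1 at 300 days. The uterus call of newGene_4336 was lost without uterus replicate 2 or 3 at 120 days or replicate 3 at 300 days (adjusted p up to 0.0693).

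The largest fall that passed, in either segment, was that of newGene_5731, of 3155 bases. It had 211, 153 and 172 scaled counts in the uterus at 300 days, against 2664, 9331 and 4011 at 120 days, and in the magnum 70, 45 and 224 at 300 days, against 758, 3217 and 2240 at 120 days. In both segments all older libraries were below all younger ones. Its log2 changes came to -4.70 ± 0.65 in the uterus (SE, adjusted p = 0.00128) and -4.29 ± 0.65 in the magnum (SE, adjusted p = 0.00117), and both passed in every fit that left out a library. The magnum change was -4.90 without magnum replicate 1 at 120 days and -4.95 without replicate 3 at 300 days. The locus was the seventh most abundant of the 105 by scaled counts and the fifth by FPKM, with a group mean of 290.5 FPKM in the uterus at 120 days.

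newGene_3231 and newGene_5752 were the other 2 loci that fell in both. newGene_3231 had 200, 232 and 137 scaled counts in the uterus at 300 days, against 263, 617 and 591 at 120 days, a change of -1.30 ± 0.36 on the log2 scale (SE, adjusted p = 0.0366). In the magnum it had 124, 78 and 119 at 300 days, against 393, 641 and 546 at 120 days, a change of -2.29 ± 0.36 on the log2 scale (SE, adjusted p = 0.00152). The magnum fall passed without any 1 library, and the uterus fall was lost in 6 of 12 such fits, those without any 1 of the 300-day uterus libraries, uterus replicate 2 or 3 at 120 days, or magnum replicate 3 at 120 days (adjusted p up to 0.132). Without a filter on low values the uterus fall had an adjusted p of 0.0666, and with the uterus groups alone 0.0764. newGene_5752 had log2 changes of -0.93 in the uterus and -0.88 in the magnum, where its libraries overlapped. The magnum call was lost without any 1 of the 120-day magnum libraries or magnum replicate 1 or 2 at 300 days (up to 0.119). The uterus call was lost without any 1 of the 6 uterus libraries or magnum replicate 2 or 3 at 120 days (up to 0.139).

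newGene_185 and newGene_1132 passed as falls in the magnum, while both stood at 60 scaled counts or more in every uterus library and their uterus changes of 0.58 and 1.24 did not pass (adjusted p = 0.746 and 0.286). The difference between the segments in this change did not pass either (adjusted p = 0.18 and 0.0663). newGene_185, of 5806 bases, had 0, 0 and 1 in the magnum at 300 days, against 3, 12 and 37 at 120 days. The change of -3.32 ± 1.01 (SE, adjusted p = 0.0326) at these low values became -1.2 with a pseudocount of 10 (adjusted p = 0.305). On the FPKM scale, where the highest group mean of newGene_185 was 3.18 and near the pseudocount, it was -0.12 (adjusted p = 0.88). The fall was lost with no filter on low values (adjusted p = 0.0779). It was also lost without magnum replicate 2 or 3 at 120 days or replicate 1 or 2 at 300 days, with adjusted p up to 0.139. It was -4.14 without replicate 1 at 120 days and -2.52 without replicate 3. newGene_1132, of 10828 bases, had 2, 16 and 6 in the magnum at 300 days, against 28, 94 and 46 at 120 days, a change of -2.83 ± 0.74 on the log2 scale (SE, adjusted p = 0.0178). It was lost without magnum replicate 2 or 3 at 120 days or replicate 1 at 300 days, with adjusted p up to 0.0721. It was -2.21 without replicate 1 at 300 days and -3.46 without replicate 2. On the FPKM scale, where its highest group mean of 2.35 is near the pseudocount, it was -0.28 (adjusted p = 0.477).

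**Figure D2:**
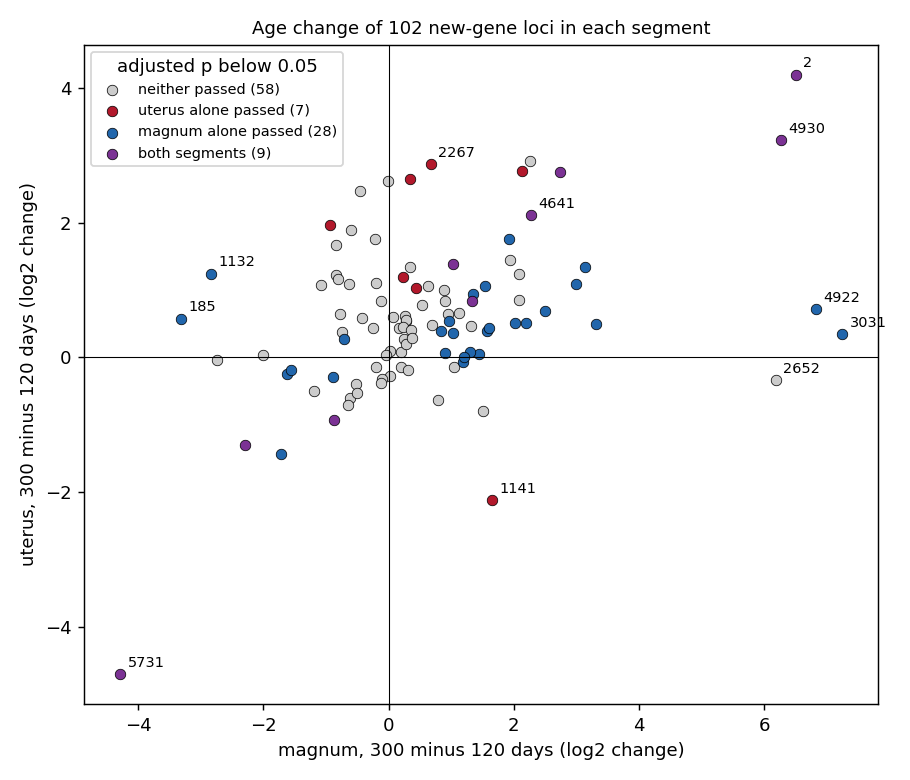
Log2 change with age (300 minus 120 days) in the magnum (horizontal axis) and in the uterus (vertical axis) for 102 of the 105 loci, leaving out the 3 loci with a group whose libraries are all at 0. Colours show in which segment the adjusted p was below 0.05, and numbers are the ends of identifiers. newGene_3031 and newGene_4922 lie far to the right near 0 in the uterus, newGene_2 and newGene_4930 at the upper right and newGene_5731 at the lower left.

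At 120 days few of these loci passed between the segments. None of the 105 (0) was higher in the uterus than in the magnum in the limma test and 4 were lower, where 0.242% of all genes tested were higher and 0.376% lower. Of the numbered genes at the same level threshold 0.243% were higher and 0.45% lower. At an unadjusted p below 0.05, 6 of the 105 loci were higher and 10 lower. The 4 were newGene_3031, newGene_3537, newGene_9 and newGene_143. Libraries did not overlap for 5 loci that were higher and 13 that were lower in the uterus, where 5.78% and 7.49% of all genes tested did so.

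newGene_3031 already differed at this age, with 12, 11 and 11 scaled counts in the uterus at 120 days, against 1692, 207 and 598 in the magnum, a log2 difference of -5.59 ± 0.57 (SE, adjusted p = 0.00164). newGene_3537, of 11803 bases, had 12, 0 and 2 in the uterus, against 623, 100 and 402 in the magnum, a log2 difference of -6.44 ± 0.97 (SE, adjusted p = 0.0126) that was -4.47 with a pseudocount of 10. newGene_9 had 26, 4 and 27 in the uterus, against 7271, 182 and 1055 in the magnum, a log2 difference of -6.17 ± 1.07 (SE, adjusted p = 0.0258). newGene_143 had 21, 43 and 29 in the uterus, against 1742, 239 and 267 in the magnum, a log2 difference of -3.97 ± 0.64 (SE, adjusted p = 0.0172). All 3 uterus libraries lay below all 3 magnum libraries at each of the 4 loci, and magnum replicate 1 was the highest at each. Without it the differences were -4.84 for newGene_3031, -5.89 for newGene_3537, -4.82 for newGene_9 and -3.04 for newGene_143, and the same number of loci, 4, passed.

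With limma fitted to the 6 libraries of this age alone 0 loci were lower, against 1 with the FPKM table and 1 with no filter on low values. Without magnum replicate 3, uterus replicate 1 or uterus replicate 3 at 120 days 2 were left. The call of newGene_3031 held without any 1 library, and its difference was -6.35 without magnum replicate 2. That of newGene_3537 was -7.21 without magnum replicate 2, -7.41 without replicate 1 of the uterus and -5.56 without its replicate 2, and that of newGene_9 was -7.47 without magnum replicate 2 and -5.35 without uterus replicate 2. newGene_3537 was lost without magnum replicate 3 at 120 days (adjusted p = 0.0613), newGene_143 without uterus replicate 1 or 3 (up to 0.0851), and newGene_9 without 6 of the 12 libraries, namely any 1 of the uterus at 120 days, magnum replicate 3 at 120 days, magnum replicate 2 at 300 days and uterus replicate 1 at 300 days (up to 0.087).

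At 300 days 15 of the 105 loci were higher in the uterus than in the magnum and 28 were lower, where 12.9% of all genes tested were higher and 11.3% lower. The differences with the largest size were toward the magnum, at newGene_3031, newGene_4922 and newGene_2652, and toward the uterus at newGene_185, newGene_5906 and newGene_1132. The median log2 difference was -0.15, against 0.02 over all genes tested. Over the numbered genes at the same level threshold it was -0.10, and 12.4% of them were higher and 16.3% lower. Libraries did not overlap for 31 loci that were higher in the uterus and 36 that were lower, where 23.6% and 20.4% of all genes tested did so.

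Toward the magnum, newGene_3031 had a log2 difference of -12.50 ± 0.57 (SE, adjusted p = 2.68e-07) and newGene_4922 of -12.19 ± 1.67 (SE, adjusted p = 0.000446), from the values given above. newGene_1845 had 0, 3 and 6 scaled counts in the uterus, against 2201, 529 and 1274 in the magnum, a log2 difference of -8.55 ± 1.60 (SE, adjusted p = 0.00256), which was -7.75 without uterus replicate 1 and -9.16 without replicate 3. newGene_3537 had 12, 84 and 14 in the uterus, against 1598, 1383 and 1276 in the magnum, a log2 difference of -5.79 ± 0.97 (SE, adjusted p = 0.00134), or -6.66 without uterus replicate 2. newGene_5436, with 36071 bases the longest of the set, had 1538, 593 and 425 in the uterus, against 1775, 4024 and 5868 in the magnum. Its log2 difference of -2.25 ± 0.74 (SE, adjusted p = 0.0447) was lost without 5 of the 12 libraries, which were magnum replicates 2 and 3 and uterus replicates 2 and 3 at 300 days and uterus replicate 3 at 120 days (up to 0.15). It was also lost with upper quartile scaling (0.0547), the FPKM table (0.0543), library totals (0.56) and no filter (0.107). In FPKM its highest group mean was 3.91, near the pseudocount.

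Toward the uterus, newGene_185 had 313, 380 and 811 scaled counts in the uterus, against 0, 0 and 1 in the magnum. The groups lay far apart, and the log2 difference was 8.51 ± 1.01 (SE, adjusted p = 0.000182), or 5.51 with a pseudocount of 10. newGene_5906, with the values given above, had a log2 difference of 8.32 ± 1.42 (SE, adjusted p = 0.00153), or 5.75 with a pseudocount of 10. newGene_1132 had 321, 335 and 866 in the uterus, against 2, 16 and 6 in the magnum, a log2 difference of 6.0 ± 0.74 (SE, adjusted p = 0.000243). In the magnum at 300 days 1 read was worth about 2 scaled counts, so the magnum values of newGene_185 and newGene_5906 amount to single reads or none. These 3 calls held without any 1 library, and newGene_1132 came to 5.38 without magnum replicate 1 and 6.63 without magnum replicate 2.

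With the 6 libraries of this age alone 24 loci were higher. With a replicate block within age more loci passed in both directions, as listed in the last section. The 28 lower loci became 17 and 18 without uterus replicate 2 or 3 at 300 days. Division by library totals, which moved the median log2 difference of all genes to 1.82, gave 70 higher and 9 lower.

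**Figure D3:**
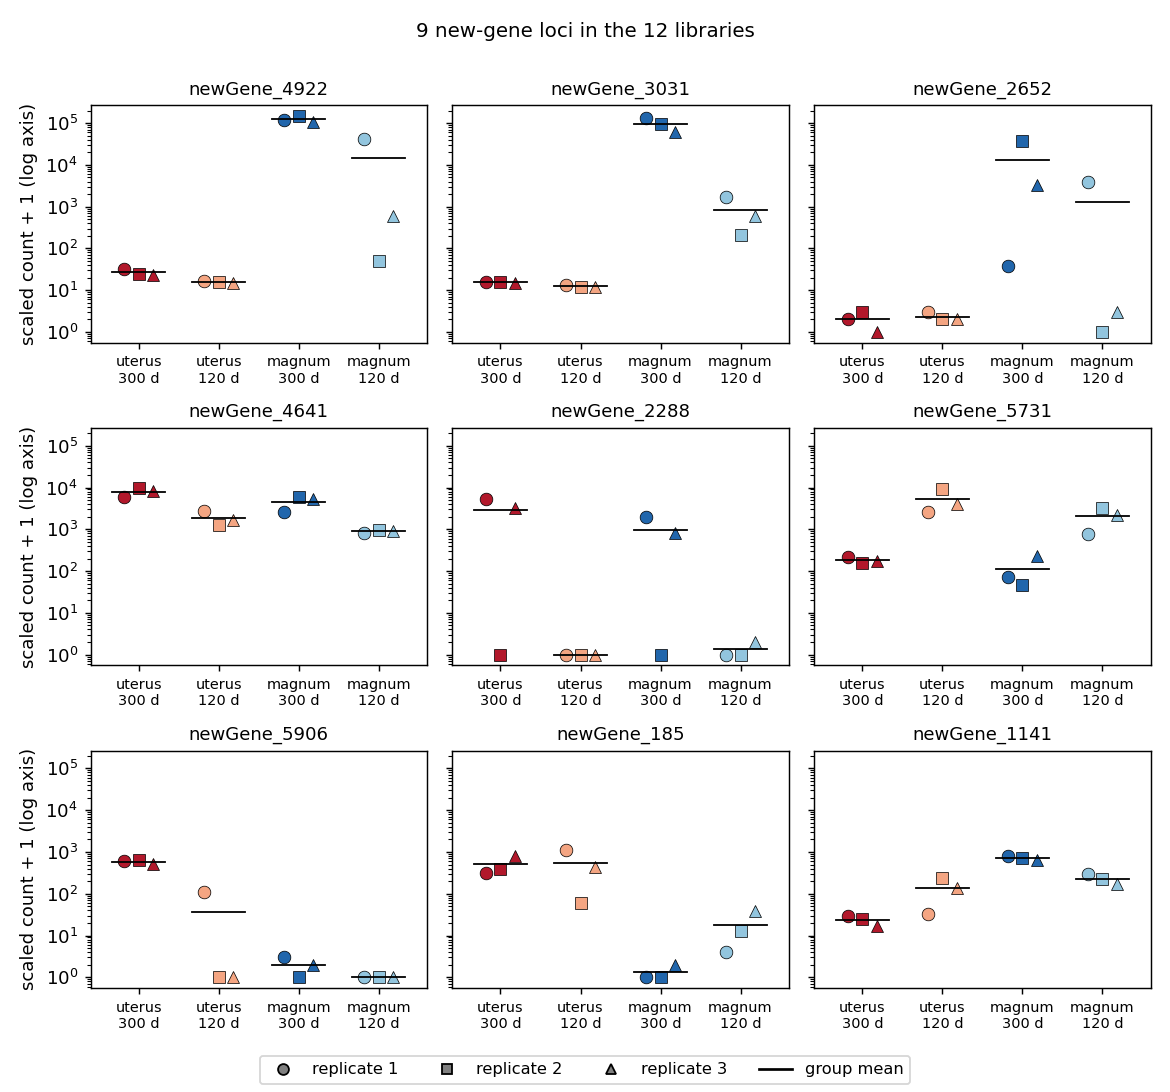
Scaled counts plus 1 of 9 loci in each library, on a log axis, with a symbol per replicate number, a colour per group and a line at the mean of each group. newGene_4922 and newGene_3031 are high in the magnum at 300 days, newGene_5731 is low at 300 days in both segments, and newGene_2288 is listed at 0 in replicate 2 of both segments at 300 days.

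At 2 of the 105 loci the segments differed in their change with age, tested as the uterus change minus the magnum change in the same limma fit, and both differences were negative. Among all genes tested 1.61% had a positive and 1.01% a negative difference. Among the numbered genes at the same level threshold these shares were 1.93% and 1.47%. At an unadjusted p below 0.05, 18 loci had a positive and 17 a negative difference. For newGene_3031 the difference was -6.90 ± 0.81 (SE, adjusted p = 0.00225), from a magnum rise of 7.25 and a uterus change of 0.35 that did not pass (adjusted p = 0.73). By the size of these 2 changes the difference is mostly the magnum rise. The uterus values of newGene_3031 were 0.0116% to 0.0158% of its 300-day magnum mean. The part of carry-over in these uterus values was not tested. The difference passed without any 1 library, at -7.66 without magnum replicate 1 and -6.14 without magnum replicate 2 at 120 days. newGene_1141, of 4100 bases, had 28, 24 and 16 scaled counts in the uterus at 300 days, against 31, 234 and 134 at 120 days, a change of -2.12 ± 0.58 on the log2 scale (SE, adjusted p = 0.0337). In the magnum it had 779, 719 and 630 at 300 days, against 297, 224 and 171 at 120 days. There the groups did not overlap either, with a log2 change of 1.65 ± 0.58 that did not pass (SE, adjusted p = 0.0566).

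The difference for newGene_1141 was -3.77 ± 0.82 (SE, adjusted p = 0.0393). It was lost in 10 of the 12 fits without 1 library, all but those without magnum replicate 1 or uterus replicate 1 at 120 days, with adjusted p up to 0.112, with no filter on low values (0.0908) and with a block for the replicate number across both ages and segments (0.0582). Without uterus replicate 1 at 120 days it was -4.59 and its uterus fall -2.95, and without uterus replicate 2 they were -3.16 and -1.51. The call of its uterus fall was lost without uterus replicate 2 or 3 at 120 days or any 1 of the 300-day uterus libraries, up to 0.118, with no filter (0.0736), with the uterus groups alone (0.106) and on the FPKM scale (0.107). The number of loci that passed depended on single libraries: without magnum replicate 1 at 120 days 5 had a positive and 12 a negative difference, without uterus replicate 1 at 120 days 5 had a positive one, and without magnum replicate 3 at 300 days 1 did. The shares over all genes tested were not taken in these fits, so the shifts are not read as particular to the loci. The 2 negative ones became 1 in 9 fits, those without magnum replicate 2 or 3 or uterus replicate 2 or 3 at 120 days, magnum replicate 1 or 3 at 300 days, or any 1 of the 300-day uterus libraries. With the replicate number as a block within each age 4 loci had a positive and 4 a negative difference.

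At some loci the level was set by single libraries. newGene_2652, of 732 bases, had 36, 36516 and 3221 scaled counts in the magnum at 300 days, against 3795, 0 and 2 at 120 days, so that each age held both a high and a very low library. Its age change in the magnum did not pass (log2 change 6.18 ± 2.81, SE, adjusted p = 0.124). In the uterus it had 1, 2 and 0 at 300 days and 2, 1 and 1 at 120 days. The log2 difference between uterus and magnum at 300 days, -9.81 ± 2.81 (SE, adjusted p = 0.0248), was lost without magnum replicate 2 or 3 at 300 days or any 1 of the 300-day uterus libraries (up to 0.108), and with no filter (0.0716). It was -12.54 without magnum replicate 1 and -7.57 without magnum replicate 2. newGene_3052, at the threshold, had 0, 1429 and 75 in the magnum at 300 days, against 142, 9 and 0 at 120 days, and reached the threshold through a single library.

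newGene_2288, of 9764 bases, followed the replicate number in both segments. At 300 days it stood at 5432, 0 and 3193 scaled counts in the uterus and at 1992, 0 and 823 in the magnum. At 120 days it was listed at 0 in the 3 uterus libraries and at 0, 0 and 1 in the magnum. At 300 days replicate 2 of both segments was thus listed at 0, while replicates 1 and 3 of both were high. Among all 19820 genes it was the 1 gene with at most 3 scaled counts in both same-numbered libraries of an age and at least 100 in the other 4 at 300 days, and 1 further gene, not among the 105, did so at 120 days. This definition was written after the values of newGene_2288 had been seen. Neither age comparison passed (adjusted p = 0.109 in the uterus and 0.143 in the magnum), and no fold is given against a group at 0.

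Same-numbered libraries of the 2 segments also moved together at other loci at 120 days. Replicate 2 was the lowest of its group in both segments at 36 of the 105 loci (34.3%) and replicate 1 the highest in both at 40 (38.1%), against 27.0% and 16.7% of the 8228 numbered genes. Replicate 1 was highest at 63 loci in the magnum and at 54 in the uterus. Replicate 3 was lowest in both at 17.1% of the loci, against 13.5% of the numbered genes. Other positions went the other way. Replicate 1 was lowest in both at 10.5% against 18.5%, replicate 2 highest at 16.2% against 22.7% and replicate 3 highest at 5.71% against 16.6%. newGene_3024, with 27962 bases, had replicate 1 highest and replicate 2 lowest in both segments. It stood at 3810, 908 and 2379 scaled counts in the uterus and 2760, 1786 and 1932 in the magnum at 120 days. At 300 days it had 4944, 6589 and 4106 in the uterus and 2560, 4848 and 1573 in the magnum. Its uterus rise of 1.34 ± 0.49 did not pass (SE, adjusted p = 0.0903), although the uterus ages did not overlap.

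Among the 105 loci, 47 passed in none of the comparisons. One of them was newGene_2655, whose libraries lay close together at 3823, 3549 and 3568 scaled counts in the uterus at 300 days and 3537, 2876 and 3868 at 120 days. In the magnum it had 4903, 3432 and 4338 at 300 days and 4092, 3902 and 4367 at 120 days. Its log2 changes with age, 0.10 ± 0.17 in the uterus and 0.02 ± 0.17 in the magnum (SE, adjusted p = 0.738 and 0.937), were both smaller than their errors.

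The loci were long. Their deposited lengths had a median of 6164 bases and ran from 455 to 36071, against a median of 4176 bases for the 8228 numbered genes at the same level threshold and 1610 bases for the 1474 new-gene loci that did not reach it. Of the 105, 33 (31.4%) were at least 10000 bases long, against 8.61% of those numbered genes and 3.05% of the remaining new-gene loci. A longer locus collects more reads at the same abundance, so a threshold on scaled counts favours length. The numbered genes in this comparison met the same threshold, and of all numbered genes 5.345% were at least 10000 bases long. The cause of the difference in length between the loci and those numbered genes was not tested. How the deposited length was derived is not given in the sources used here.

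The floor of 500 scaled counts corresponds to a lower FPKM at a longer locus, so a fall of FPKM with length among the loci taken follows from the rule. The median highest group mean rose over the length classes on the scaled count scale, from 656 for the 10 loci under 1000 bases to 955, 1274 and 1411 for the 14 loci of 1000 to 2999, the 48 of 3000 to 9999 and the 33 of 10000 or more. On the FPKM scale it was 121 for the shortest class and then 28.04, 12.03 and 4.05. Numbered genes at the same threshold fell in the same order, with medians of 159, 30.7, 13.3 and 8.38 FPKM in the same classes. On the scaled count scale these numbered genes showed no steady rise, with medians of 1521, 1258, 1451 and 1818. Of the 10 loci highest by FPKM, 8 were under 3000 bases, and 4 were also among the 10 highest by scaled counts. newGene_6146, of 587 bases, ranked 4 by FPKM with a group mean of 378 and 87 by scaled counts with 603.

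The 2 tables did not agree for every locus. The deposited FPKM value, set against the one that scaled count, length and the library's typical divisor would give, had a median ratio of 1.07 over the 105 loci, and 13 of them (12.4%) had a ratio above 2, against 7.63% of the numbered genes. newGene_6146 had the highest ratio, 8.97, followed by newGene_4276 with 6.63, newGene_4910 with 6.59 and newGene_5731 with 4.56. The FPKM ranks of these loci rest on those values.

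**Figure D4:**
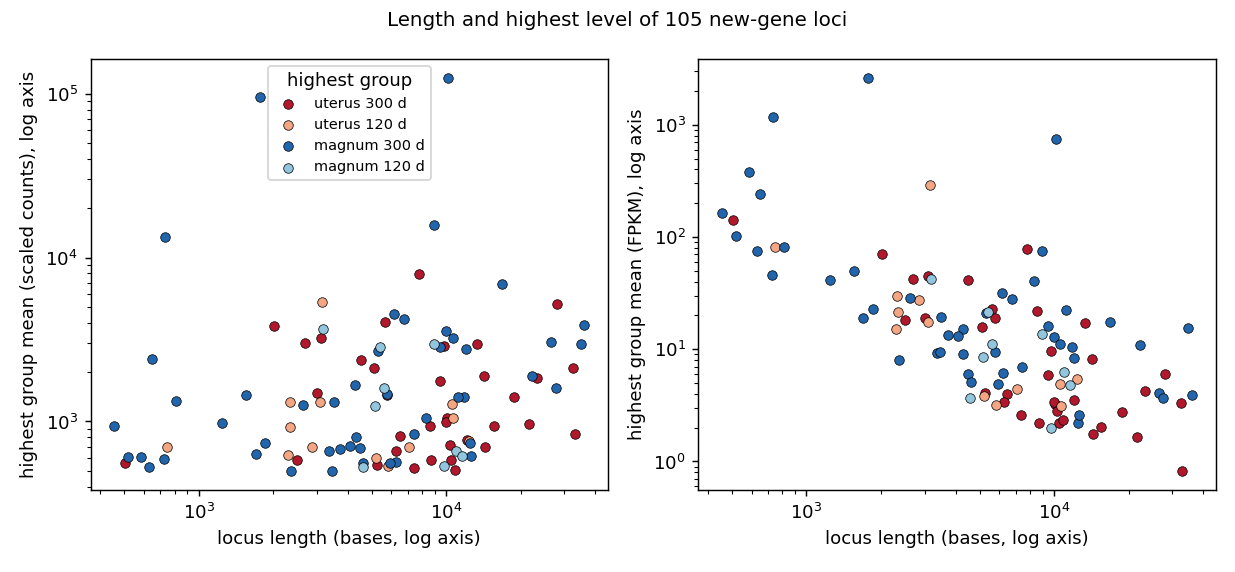
Length of the 105 loci against their highest group mean in scaled counts (left) and in FPKM (right), all axes logarithmic, coloured by the group with the highest mean in scaled counts. In the left panel points of all lengths start at the threshold of 500, and in the right panel FPKM falls as length grows, as the floor on scaled counts sets it to.

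The 10 loci under 1000 bases were mostly highest in the magnum at 300 days, with 8 of 10 there and 1 in each uterus group, against 106 of the 417 numbered genes under 1000 bases. Within that group replicate 3 was the highest library at 8 of the 10, against 17 of the 48 loci of 3000 to 9999 bases and 22.3% of those 417 numbered genes. newGene_6037, of 506 bases, had 479, 518 and 681 scaled counts in the uterus at 300 days, against 407, 291 and 155 at 120 days, and 147, 189 and 603 in the magnum at 300 days, against 187, 171 and 139 at 120 days. Of these 10 loci 4 were called higher with age in the magnum and 0 in the uterus in the limma test, where 12.1% and 6.54% of all genes tested were higher. The magnum calls of newGene_1845, newGene_6134 and newGene_6146 were each lost in at least 1 fit without a library (adjusted p up to 0.109). That of newGene_96 was kept in all such fits. newGene_5947, of 3456 bases, had the same lean by scaled counts, at 333, 125 and 1048 in the magnum at 300 days, against 85, 346 and 205 at 120 days. That lean came from replicate 3, and by FPKM the locus was highest in the uterus at 300 days. It passed in none of the comparisons.

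Loci with consecutive identifiers did not always share a pattern. There were 6 such pairs among the 105, and the files do not say whether the numbers follow genome position. newGene_3684 and newGene_3685 both rose in the magnum, by 2.19 and 1.03 on the log2 scale. newGene_4681 had 115, 47 and 261 scaled counts in the magnum at 300 days, against 98, 3373 and 1301 at 120 days, and did not pass (log2 change -2.74 ± 1.09, SE, adjusted p = 0.0854), where newGene_4682 rose. The members of these pairs were named after their values had been seen.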

How the data were processed

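The study sequenced mRNA libraries of 4 groups of 3 (2 oviduct segments at 2 ages). Per the labels' protocols, the kits were RNAsimple Total RNA for extraction and Smarter mRNA-seq Library Prep for the libraries. The submitters' processing notes name, without roles, TopHat2 2.0.8, Cufflinks 2.0.2, FastQC 0.11.6, GATK 3.8 and Trimmomatic 0.32. The authors deposited a table of whole numbers per gene that they had already scaled across libraries, so its values are treated as a score (scaled counts) and not as raw counts. They also deposited FPKM values per gene, with a length for each gene. The annotation that gave the new-gene labels is not given in the sources used here.

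Loci were taken by the rule in the opening. limma 3.58.1 in R 4.3.3 fitted log2(scaled count + 1) of the 14883 genes with at least 10 in at least 3 libraries, with 1 coefficient per group over all 12 libraries, 8 residual degrees of freedom and a mean-dependent prior. All adjusted p-values are limma's, two-sided, with Benjamini-Hochberg adjustment over all genes tested and a threshold of 0.05. The script was tested on simulated data in which each library was drawn independently. That test did not include the shared deviation of same-numbered libraries. A count model was not used, since the values are not counts, and depth per library could be estimated for 4 of the 12.

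Named loci are the 10 with the highest group mean, the 3 largest passing rises and falls of each comparison with a log2 change of at least 1 and no overlap, the interaction loci that passed, the 2 longest and 2 shortest, the 2 on each side of the threshold and loci at 0 in a whole group; others were named after their values were seen. The loci and lists were chosen with earlier results of these data known.

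Same-numbered uterus and magnum libraries deviated together at 120 days (r across genes 0.361, 0.591 and 0.39) and less so at 300 days (0.198, 0.216 and 0.0838). Pairs of different number ran from -0.398 to 0.0381 at 120 days and from -0.18 to -0.0164 at 300 days. By the criterion that every pair exceeds 0.1 the numbers pair the segments at 120 days, where a block left 0 higher and 4 lower loci, as without it. At 300 days replicate 3 fell short of it, although each same-numbered r lay above each of a different number. The main counts used no block at either age, so they leave out the pairing at 120 days and a possible pairing at 300 days. At 300 days a block within age gave more loci both ways, as listed in the last section. Alternatives were a pseudocount of 10, no filter, other scalings, the FPKM table, the compared groups alone, replicate blocks, each library left out, and another choice of loci. The pseudocount was 1 on the FPKM scale too, which shrinks changes at loci of low FPKM.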

Additional observations from a re-analysis of the deposited data

Results flagged for a closer look

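At 2 of the 105 loci the age change differed between the segments by limma's test of the difference itself, and both are given with their libraries in the report. Over all genes tested 1.61% had a positive and 1.01% a negative difference. The uterus change minus the magnum change was -6.90 ± 0.81 at newGene_3031 (SE, adjusted p = 0.00225), which was higher in 3 of 3 older magnum libraries and passed without any 1 library, with values of -7.66 to -6.14. Its uterus values were very low at both ages, at 11 to 15 scaled counts, and the part of carry-over in them was not tested. The same difference was -3.77 ± 0.82 at newGene_1141 (SE, adjusted p = 0.0393), which fell in the uterus and was higher in the magnum in 3 of 3 libraries each. Its magnum change did not pass by itself. The difference did not pass in 10 of 12 fits without 1 library, with values of -4.59 to -3.16.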

How the results depend on the processing

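Every count here is of the 105 loci, with p-values from limma. Shares over all genes tested were taken for the main fit alone, so shifts in these counts are not read as particular to the loci. Leaving out 1 library at a time gave 18 to 34 loci higher and 6 to 13 lower with age in the magnum, 7 to 20 higher and 1 to 4 lower with age in the uterus, 0 to 1 higher and 2 to 5 lower in the uterus against the magnum at 120 days, 13 to 21 higher and 17 to 29 lower at 300 days, and 0 to 5 positive and 1 to 12 negative differences between the age changes. Division by library totals gave 5 higher and 59 lower with age in the magnum, 2 lower with age in the uterus, 70 higher and 9 lower in the uterus at 300 days, and 61 positive differences between age changes. It turned the magnum age change of newGene_4486 to -0.95, of newGene_176 to -0.34 and of newGene_6134 to -0.58, and the segment difference of newGene_4486 at 300 days to 1.13. Both turned values of newGene_4486 passed in the opposite direction (adjusted p = 0.0119 and 0.00427), and those of newGene_176 and newGene_6134 did not pass (0.169 and 0.221). Upper quartile scaling gave 26 higher and 12 lower in the magnum with age. Without a filter on low values 1 locus was lower with age in the uterus, 1 was lower in the uterus at 120 days and 1 difference between age changes was negative. With only the groups compared 2 were lower with age in the uterus, 0 were lower in the uterus at 120 days and 24 were higher in the uterus at 300 days. The FPKM table gave 36 higher and 11 lower with age in the magnum, 1 lower in the uterus at 120 days and 1 positive difference between age changes, and a pseudocount of 10 gave 1 positive difference. Loci taken by their mean over all 12 libraries, 66 in number, gave 7 higher and 2 lower with age in the uterus, 9 higher and 18 lower in the uterus at 300 days and 1 negative difference. Without both 120-day libraries numbered 1 there were 29 higher with age in the uterus and 8 positive and 11 negative differences between age changes. The cause of these shifts was not tested.

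With a replicate block over all libraries, which pairs numbers across ages without a ground in the labels, 29 were higher and 10 lower with age in the magnum, 15 and 3 in the uterus, 17 and 28 in the uterus against the magnum at 300 days, and there was 1 positive and 1 negative difference between age changes. With a replicate block within age 27 were higher and 33 lower in the uterus at 300 days, where not every same-numbered pair met the criterion for pairing, and 4 differences were positive and 4 negative. At 120 days both blocks gave 0 higher and 4 lower, as without a block. A threshold of 250 would take 210 loci and one of 1000 would take 55. Group means without magnum replicate 1 at 120 days, an alternative chosen after seeing the data, would take 105. Values near 0 in the 300-day magnum are limited by 1 read being worth about 2 scaled counts.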
